A study of Saccharomyces cerevisiae with 30 samples.

Results

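Ribosome footprints of 39 yeast translation factors were followed, out of 5890 genes listed in the count tables. The genes were taken by name: 11 elongation factors, 26 initiation factors and 2 termination factors. Of these, 38 had counts and passed the filter for testing (a mean count of at least 20 over the inputs). The remaining gene, HYP2, which encodes the aerobic form of eIF5A, was listed at 0 counts in all 30 libraries. The authors' length-scaled value for HYP2 was left empty in all 30, so the length over which it was counted is unknown. By contrast, ANB1 had 0 counts in the Ubc6 pulldown at 60 min of auxin, and its value there was 0 and not empty. The same held for HIS3 in the Ubc6 input at 0 min. The 0 counts of HYP2 are thus no evidence for a lack of footprints. Whether HYP2 was left out of the counting was not tested.

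All cells carried Srp72, a subunit of SRP (the particle that takes signal-bearing nascent chains to the ER), fused to an auxin-inducible degron (Srp72-AID-HA), together with the plant auxin receptor OsTIR1 and the ribosomal proteins Rpl16a and Rpl16b tagged with an acceptor peptide for biotin (HA-TEV-AVI). They differed in where the biotin ligase BirA sat. Ligases at the endoplasmic reticulum (ER) were SEC63-mVenus-BirA, at the translocon, or BirA-mVenus joined to the UBC6 tail anchor, expressed from the SEC63 promoter at his3. Ligases at the mitochondrial outer membrane were TOM20-mVenus-BirA and OM45-mVenus-BirA. The TOM20 strain was W303 (ade2-1, his3-11,15, trp1-1, ura3-1, leu2-3,112 and can1-100), and the other strains were S288C (leu2-delta-0, met15-delta-0 and ura3-delta-0). Cells were collected after 0, 15, 30 or 60 min in 500 µM auxin for Sec63 and Ubc6 with cycloheximide, after 0, 30 or 60 min for Sec63 without it, and after 0 or 30 min for Tom20 and Om45. Cycloheximide, which freezes ribosomes on messages, was given at 100 µg/ml for 2 min before a 2 min pulse of 10 nM biotin. Cells not given the drug were pulsed for 1 min. Each of the 15 cultures gave a streptavidin pulldown and a whole-cell input, so there were 5 series and 1 library per condition. Every strain carried the degron, so an effect of auxin itself and an effect of losing Srp72 cannot be told apart.

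Translation starts when eIF2 brings the initiator tRNA to the small subunit, with eIF3, eIF1 and eIF1A, and when the cap-binding eIF4F complex loads the message. eEF1A then delivers each aminoacyl-tRNA, eEF2 moves the ribosome along, and fungi need in addition the ATPase eEF3. Release factors eRF1 and eRF3 end the chain. The factors themselves are soluble cytosolic proteins with no signal sequence, made in large amounts in fast-growing yeast, and their genes fall together with those of ribosomal proteins when growth slows.

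Library totals of the listed genes ran between 4863970 and 103495224 footprints in pulldowns and between 2041786 and 113497242 in inputs. The smallest input was that of the Ubc6 series at 0 min. SRP72 itself had 70.7 to 126 CPM (the count scaled to one total over the listed genes of every library) in the inputs. It fell by 0.52 ± 0.10 on the log2 scale at 60 min (edgeR adjusted p = 0.00078). The degron acts on the protein, so these counts do not measure the depletion. MET17 (MET15), deleted in the S288C strains, had 943 and 1361 CPM in the 2 W303 inputs and at most 0.0455 CPM in the other inputs. LEU2 and URA3 are also deleted in the stated S288C genotype. They nonetheless had 85.8 to 200 CPM and 66.9 to 241 CPM over the 15 inputs, and the reason was not tested. Of the ER marker genes, 16 of 18 were higher at ER than at mitochondrial ligases without auxin, and 16 of 16 mitochondrial markers were lower. Of 20 general stress genes, 16 rose in the inputs at 60 min (median log2 change 2.31, lowest 0.20), and 16 rose at 30 min (median 1.23). Their part in the changes below was not tested. Footprint counts measure message level and its translation together, and these cannot be told apart here.

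Before auxin, elongation factors held the top of the order of levels per length, but the highest values, those of eEF1A, rest on a short counted length. RPKM, the authors' read count scaled by length and library total, gave medians over 5 inputs of 17428 for TEF2 and 16547 for TEF1, both coding for eEF1A. EFB1, the exchange factor of eEF1A, followed at 4742, YEF3 (eEF3) at 3244 and EFT2 (eEF2) at 2485. Among initiation factors, TIF1 and TIF2 (eIF4A) had the highest RPKM, 1700 and 1629, then PAB1, the poly(A)-binding protein, at 974. These RPKM values use the counted length, which is short for eEF1A, eEF2 and eIF4A. CPM per kilobase of the whole gene also divides by bases that were not counted, so it sets genes counted in part too low. By that measure YEF3 (3254), EFB1 (3079), TEF4 (1466) and PAB1 (1019) stood above TEF2 (1011) and TEF1 (956.5). PAB1, SUI1 (868) and CDC33 (722) likewise stood above TIF1 (219) and TIF2 (179.7). In RPKM, the ranges of neighbours in the order did not overlap over the 5 inputs between TEF1 and EFB1, between RPG1 (188) and GCD1 (80.7), between TIF4632 (57.7) and ANB1 (6.999), or between ANB1 and HEF3 (0.66). Every other pair of neighbours in the order overlapped. Genes further apart could still overlap: NIP1 (eIF3c) reached down to 75.96 RPKM, below the highest values of GCD1 (82.04) and GCD7 (98.002). In the Ubc6 input the listed genes made up 57.7% of the RPKM total, which lowers all RPKM values of that library.

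**Figure D1:**
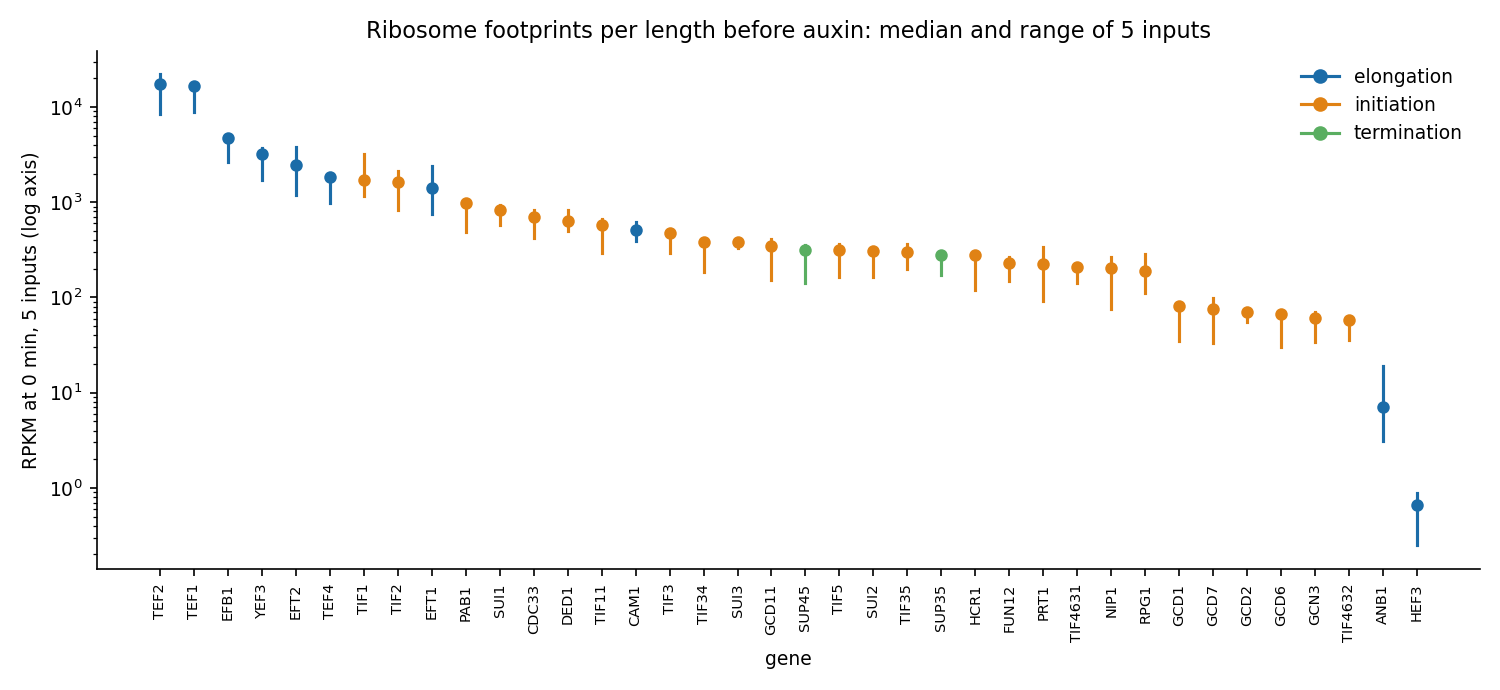
Levels per length of the 38 measured factors before auxin, as the median (point) and range (line) of 5 inputs in RPKM on a log axis, coloured by role. The eEF1A genes TEF2 and TEF1 lie highest, at medians of 17428 and 16547 RPKM, the eIF2B subunits between 61.5 and 80.7, and ANB1 and HEF3 below all others.

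The spread of subunit levels per length differed between complexes. For eIF2 (SUI2, SUI3 and GCD11), the highest subunit was 1.25 times the lowest in the median input. The ratio was 1.47 for the 5 subunits of eIF2B, the exchange factor of eIF2, and 2.06 for the 6 subunits of eIF3. Its largest values over the 5 inputs were 2.67 for eIF2, 1.83 for eIF2B and 2.66 for eIF3. The median eIF2 subunit stood 4.22 to 5.47 times above the median eIF2B subunit in all 5 inputs. The median eIF3 subunit stood at 0.66 to 0.82 times the eIF2 one. In the eIF4 group the highest gene was 20.1 to 58.8 times the lowest (median 32.6), and TIF1 and TIF2 together were at 8.89 to 21.1 times the eIF4G genes, a ratio that rests on the 130 counted bases of eIF4A. CDC33 (the cap-binding eIF4E) was at 2.34 to 2.97 times the sum of the eIF4G genes TIF4631 and TIF4632, the scaffold of eIF4F. SUP45 (eRF1) was at 0.82 to 1.27 times SUP35 (eRF3).

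The levels of 7 factors rest on under 50% of the gene. The ratio of deposited counts to RPKM gives a counted length of 79 of 1377 bases for TEF1 and TEF2, 133 of 2529 for EFT1 and EFT2, 130 of 1188 for TIF1 and TIF2, and 730 of 1815 for DED1. Over all listed genes with counts, 4.04% were counted over under 50% of their length. TEF1 and TEF2 encode one protein, as do EFT1 and EFT2, and TIF1 and TIF2. The input of the Sec63 series with cycloheximide at 0 min held less of 4 of these than any other 0 min input. TEF1 had 733 CPM there against 1224 to 1415 in the other 4, and EFT1 had 121 against 175 or more. The same input held more of TIF1, TIF2 and DED1 than any other 0 min input, with TIF1 at 434 CPM against 161 to 339.

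After 60 min of auxin, nearly all translation factors had lost footprints in the inputs. Of the 38, 32 fell, 1 rose and 5 did not pass the test. Over all 5286 genes tested, 28.2% fell and 30.6% rose (edgeR quasi-likelihood test, adjusted p below 0.05). The median log2 change was -0.93 for the factors and 0.06 for all genes. In the 3 series with a 60 min sample, 34 of 38 factors were lower in every series, against 32.7% of all genes. The share of input footprints on the 39 genes was 1.33 to 1.49% at 60 min, against 2.91 to 3.33% at 0 min in all 5 series. The p-values compare series, not repeated cultures of one strain.

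YEF3, the fungal eEF3 that helps clear the exit-site tRNA, had the largest change. It had 1804, 1426 and 1692 CPM at 60 min in the Sec63, Ubc6 and cycloheximide-free Sec63 series, against 11469, 9310 and 11517 CPM at 0 min in the same series. The groups did not overlap and were close to each other within a time. Its fitted log2 change was -2.84 ± 0.16 (SE, adjusted p = 6.8e-08), the 25th lowest of 5286 genes. At 0 min, YEF3 alone held 0.93 to 1.15% of all input footprints. Without YEF3, the share of the other elongation factors at 60 min was 0.67 to 0.80 times that at 0 min.

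Both subunit genes of eEF1Bγ, the scaffold of the eEF1B exchange complex, fell at 60 min. TEF4 had 894, 562 and 830 CPM at 60 min, against 2634, 2093 and 2449 CPM at 0 min in the same 3 series (log2 change -1.79 ± 0.13). CAM1 had 566, 505 and 456 CPM at 60 min, against 797, 841 and 638 CPM at 0 min (-0.64 ± 0.11, adjusted p = 0.0002). The times did not overlap for either gene. The eEF2 genes, whose product moves the ribosome by a codon, both fell. EFT2 had 142, 108 and 110 CPM at 60 min, against 194, 274 and 333 CPM at 0 min (-1.41 ± 0.24). EFT1 had 82.2, 79.5 and 77.8 CPM at 60 min, against 121, 175 and 191 CPM at 0 min (-1.25 ± 0.22). In both, the Sec63 series with cycloheximide fell least, from the low 0 min input named above.

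EFB1, the catalytic eEF1Bα subunit, and TEF2 did not pass the test at 60 min. EFB1 had 3264, 2363 and 3095 CPM at 60 min, against 3071, 2858 and 3099 CPM at 0 min (-0.12 ± 0.11, adjusted p = 0.34). TEF2 had 1306, 1609 and 1477 CPM at 60 min, against 909, 1172 and 1503 CPM at 0 min (0.18 ± 0.13, adjusted p = 0.25). The groups overlapped for both genes. TEF1 had 508, 588 and 630 CPM at 60 min, against 733, 1224 and 1317 CPM at 0 min, with no overlap (-1.08 ± 0.18, adjusted p = 0.00022).

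HEF3 and ANB1 are little-used copies of YEF3 and HYP2, and their counts were small. HEF3 was the factor that rose: 215, 65 and 58 footprints at 60 min (6.45, 7.32 and 3.50 CPM), against 9, 6 and 46 at 0 min (0.81, 2.94 and 2.09 CPM). Its log2 change was 1.39 ± 0.35 (adjusted p = 0.0043). ANB1, the hypoxic eIF5A, had 43, 3 and 32 footprints at 60 min, against 87, 6 and 67 at 0 min, with CPM of 1.29, 0.34 and 1.93 against 7.83, 2.94 and 3.05. Its change of -2.08 ± 0.52 (adjusted p = 0.0041) was no longer called without the Sec63 series with cycloheximide (-1.50, adjusted p = 0.096) or without the series as a block (adjusted p = 0.051).

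**Figure D2:**
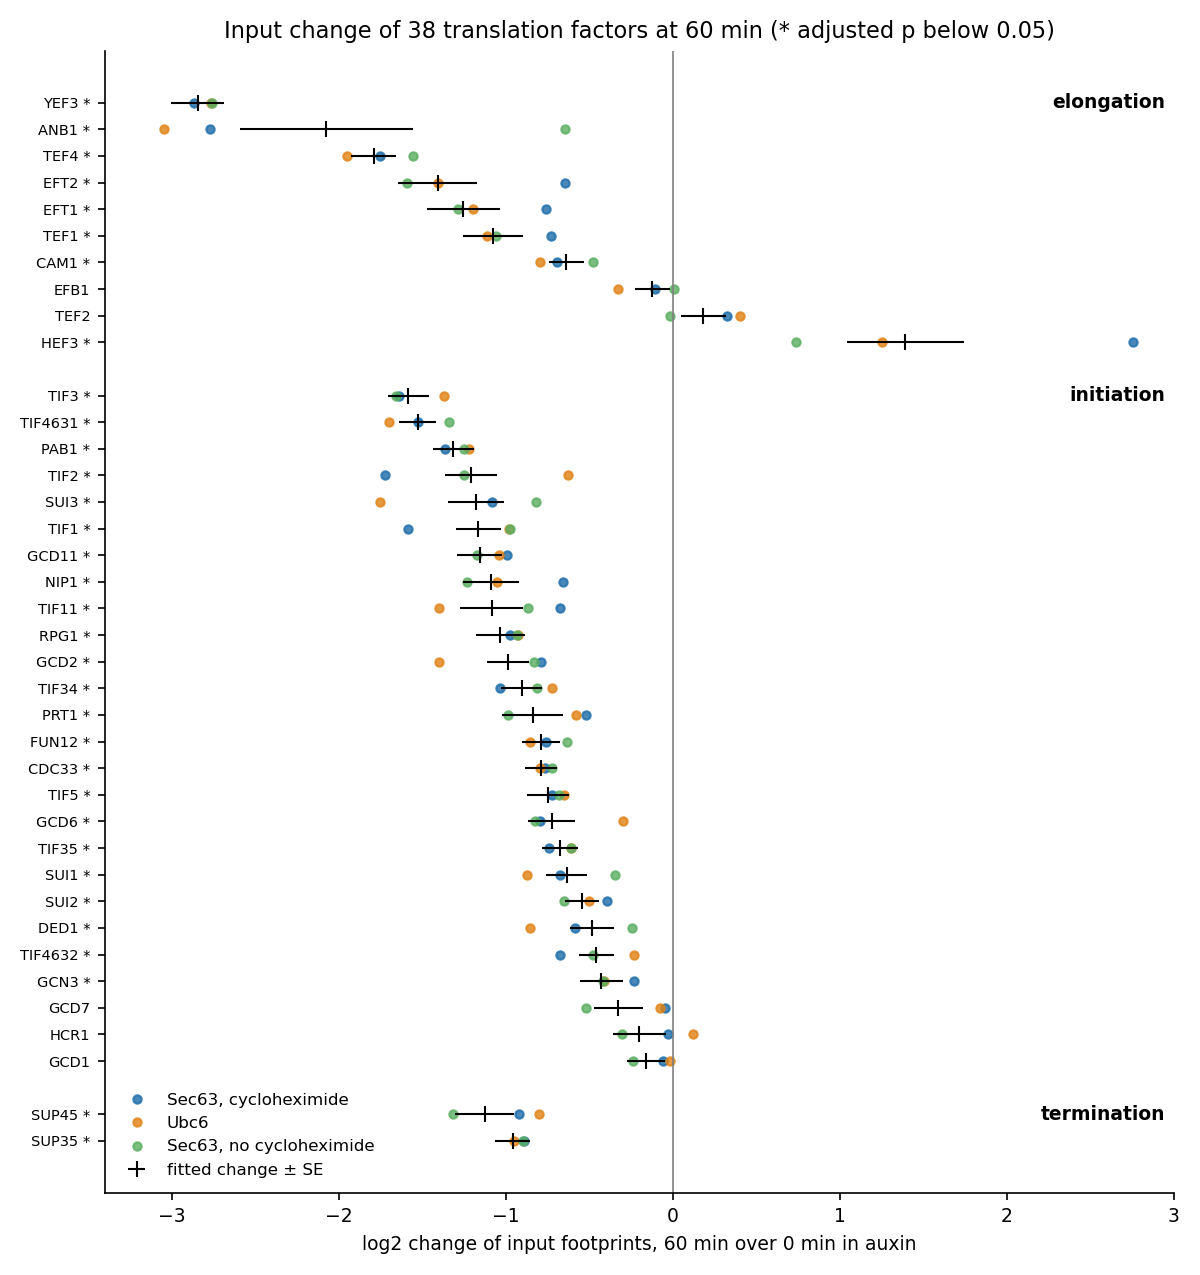
Log2 change of input footprints at 60 min over 0 min in auxin for 38 factors, ordered by role and size. Coloured points are the 3 series, black bars the fitted change with its standard error, and stars mark adjusted p below 0.05. YEF3 lies between -2.87 and -2.76 in all 3 series, while the fitted changes of GCD7, HCR1, GCD1, EFB1 and TEF2 lie between -0.33 and 0.18 and carry no star.

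Of the 26 initiation factors, 23 fell at 60 min and none rose (median -0.81). All 6 genes of the cap-binding eIF4 group fell. TIF3 (eIF4B, which aids the eIF4A helicase) had 214, 252 and 206 CPM at 60 min, against 582, 626 and 653 CPM at 0 min (-1.58 ± 0.12). TIF4631 (eIF4G1) had 237, 227 and 252 CPM at 60 min, against 594, 710 and 641 CPM at 0 min (-1.53 ± 0.11). Both were lower in every series by more than the spread within a time. The eIF4A genes were less even. TIF1 had 166, 137 and 113 CPM at 60 min, against 434, 261 and 223 CPM at 0 min (-1.16 ± 0.14), and TIF2 had 102, 126 and 89.4 CPM, against 292, 188 and 213 CPM (-1.21 ± 0.15). PAB1 had 786, 653 and 741 CPM at 60 min, against 1766, 1463 and 1774 CPM at 0 min (-1.31 ± 0.12).

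The tRNA-carrying eIF2 fell in all 3 subunits, with SUI3 (β) at -1.18 ± 0.17, GCD11 (γ) at -1.16 ± 0.13 and SUI2 (α) at -0.54 ± 0.10. SUI3 had 186, 189 and 159.7 CPM at 60 min, against 342, 611 and 283 CPM at 0 min, and its high 0 min value was that of the Ubc6 series. Of the 5 eIF2B subunits, GCD2 (-0.99), GCD6 (-0.73) and GCN3 (-0.43) fell. GCD7 (-0.33 ± 0.15, adjusted p = 0.070) and GCD1 (-0.16 ± 0.11, adjusted p = 0.23) did not pass. In eIF3, the scaffold subunits NIP1 (-1.09), RPG1 (-1.03) and PRT1 (-0.84) and the smaller TIF34 (-0.91) and TIF35 (-0.67) fell. HCR1, the loosely bound eIF3j, did not pass (-0.20 ± 0.16, adjusted p = 0.29). The 4 factors of start codon choice and subunit joining all fell: TIF11 (eIF1A, -1.09), FUN12 (eIF5B, -0.79), TIF5 (eIF5, -0.75) and SUI1 (eIF1, -0.64). DED1, a helicase that opens leaders for scanning, fell by 0.48 ± 0.13. Both termination factors fell, with log2 changes of -1.13 ± 0.17 for SUP45 and -0.96 ± 0.11 for SUP35.

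At 30 min, 21 of the 38 factors had fallen and 2 had risen, where 23.9% of all genes fell and 21.8% rose. The median change was -0.27, against 0.03 over all genes. Those that fell were 17 of 26 initiation factors, 2 of 10 elongation factors and both termination factors. YEF3 again changed most, with 6338, 4862, 5948, 3513 and 6028 CPM at 30 min in the Sec63, Ubc6, cycloheximide-free Sec63, Tom20 and Om45 series, against 11469, 9310, 11517, 10202 and 10163 CPM at 0 min (-0.85 ± 0.12, adjusted p = 9.6e-05). TEF4 had 1811, 1316, 1690, 1040 and 1654 CPM at 30 min, against 2634, 2093, 2449, 2147 and 2295 CPM at 0 min (-0.50 ± 0.10). No 30 min input reached any 0 min input for either gene. The W303 Tom20 series was the lowest at 30 min in both.

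Among initiation factors at 30 min, TIF3 changed most, with 345, 366, 382, 291 and 366 CPM, against 582, 626, 653, 635 and 583 CPM at 0 min (-0.67 ± 0.10). GCD2 (eIF2Bδ) had 84.4, 105, 89.1, 75.4 and 105 CPM at 30 min, against 135, 186, 150, 139 and 154 CPM at 0 min (-0.58 ± 0.10). TIF4631 had 372, 415, 424, 343 and 427 CPM at 30 min, against 594, 710, 641, 624 and 609 CPM at 0 min (-0.53 ± 0.09). In these genes the times did not overlap. SUI3 had 221, 252, 206, 215 and 224 CPM at 30 min, against 342, 611, 283, 348 and 285 CPM at 0 min (-0.54 ± 0.13). PAB1 had 1185, 1128, 1260, 987 and 1242 CPM at 30 min, against 1766, 1463, 1774, 1844 and 1602 CPM at 0 min (-0.39 ± 0.10). SUP35 had 363, 446, 422, 336 and 401 CPM at 30 min, against 458, 620, 628, 585 and 590 CPM at 0 min (-0.39 ± 0.08). These 3 also had no overlap between the times.

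Further eIF2B subunits fell at 30 min: GCD6 (ε, the catalytic one) had 86.1, 97.5, 86.0, 74.6 and 88.4 CPM, against 117, 111, 159, 146 and 144 CPM at 0 min (-0.49 ± 0.11). GCN3 (α) had 37.7, 40.2, 38.7, 33.6 and 40.2 CPM at 30 min, against 40.9, 54.4, 64.1, 56.9 and 65.9 CPM at 0 min (-0.40 ± 0.10). TIF2 had 154, 172, 145, 118.9 and 197 CPM at 30 min, against 292, 188, 213, 164 and 284 CPM at 0 min (-0.38 ± 0.12), and its groups overlapped. GCN3 separated by less than 1 CPM, since the Sec63 series with cycloheximide began low. EFB1 rose at 30 min, with 3848, 2990.5, 3594, 3927 and 3416 CPM, against 3071, 2858, 3099, 3039 and 2765 CPM at 0 min (0.41 ± 0.09, adjusted p = 0.0022). It was higher in each series, but the Ubc6 value at 30 min lay within the 0 min range. TEF2 also rose (0.37 ± 0.11, adjusted p = 0.015), but its 1372, 1582, 1394, 1700 and 1639 CPM at 30 min overlapped the 909, 1172, 1503, 1392 and 1766 CPM at 0 min. The count of 23 calls fell to 12 without the Tom20 series or without the cycloheximide-free Sec63 series, to 15 without the Sec63 series with cycloheximide, and to 8 without the series as a block. The 8 factors that fell at 30 min under every setting with separate paralogs were YEF3, TIF3, TIF4631, GCD2, GCD6, GCN3, SUI3 and SUP35, and 29 did so at 60 min.

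At 15 min, 1 factor had fallen, where 8.48% of all genes fell. This was TIF4631, with 442 and 452 CPM at 15 min in the Sec63 and Ubc6 series, against 594 and 710 CPM at 0 min (-0.47 ± 0.13, adjusted p = 0.026). It was not called when either series was left out (adjusted p = 0.20 and 0.32). The next smallest p-values were those of SUI3 (-0.56 ± 0.19, adjusted p = 0.074), GCD2 (-0.41 ± 0.15, adjusted p = 0.080), TEF2 (0.43 ± 0.16, adjusted p = 0.085) and TIF3 (-0.35 ± 0.14, adjusted p = 0.12). SUI3 had 264 and 282 CPM at 15 min, against 342 and 611 CPM at 0 min. GCD2 had 109 and 120.5 CPM at 15 min, against 135 and 186 CPM at 0 min. TEF2 had 1487 and 1576 CPM at 15 min, against 909 and 1172 CPM at 0 min. In all of them both 15 min values lay on one side of the 0 min values. YEF3 had 10576 and 7478 CPM at 15 min and did not pass (-0.24 ± 0.17, adjusted p = 0.38).

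Elongation and initiation factors were compared by the median change of each class. The median log2 change of the 10 elongation factors at 60 min was -0.71, -1.16 and -0.85 in the Sec63, Ubc6 and cycloheximide-free Sec63 series, and that of the 26 initiation factors was -0.75, -0.82 and -0.82. The difference of the medians was thus 0.04, -0.33 and -0.03, with no common sign. At 30 min it was 0.69 in the Sec63 series with cycloheximide, whose 0 min input was low in eEF1A and eEF2, and between -0.12 and 0.00 in the other 4 series. By share of footprints, elongation factors at 60 min stood at 0.40 to 0.43 times their 0 min share and initiation factors at 0.54 to 0.59 times theirs. YEF3 alone stood at 0.15 to 0.16 times, and the other elongation factors at 0.67 to 0.80 times. These shares sum counts, which cover 99.5% of the YEF3 gene but 5.75% of the eEF1A genes and 5.27% of the eEF2 genes. The elongation share thus gives eEF1A and eEF2 too little weight against YEF3.

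**Figure D3:**
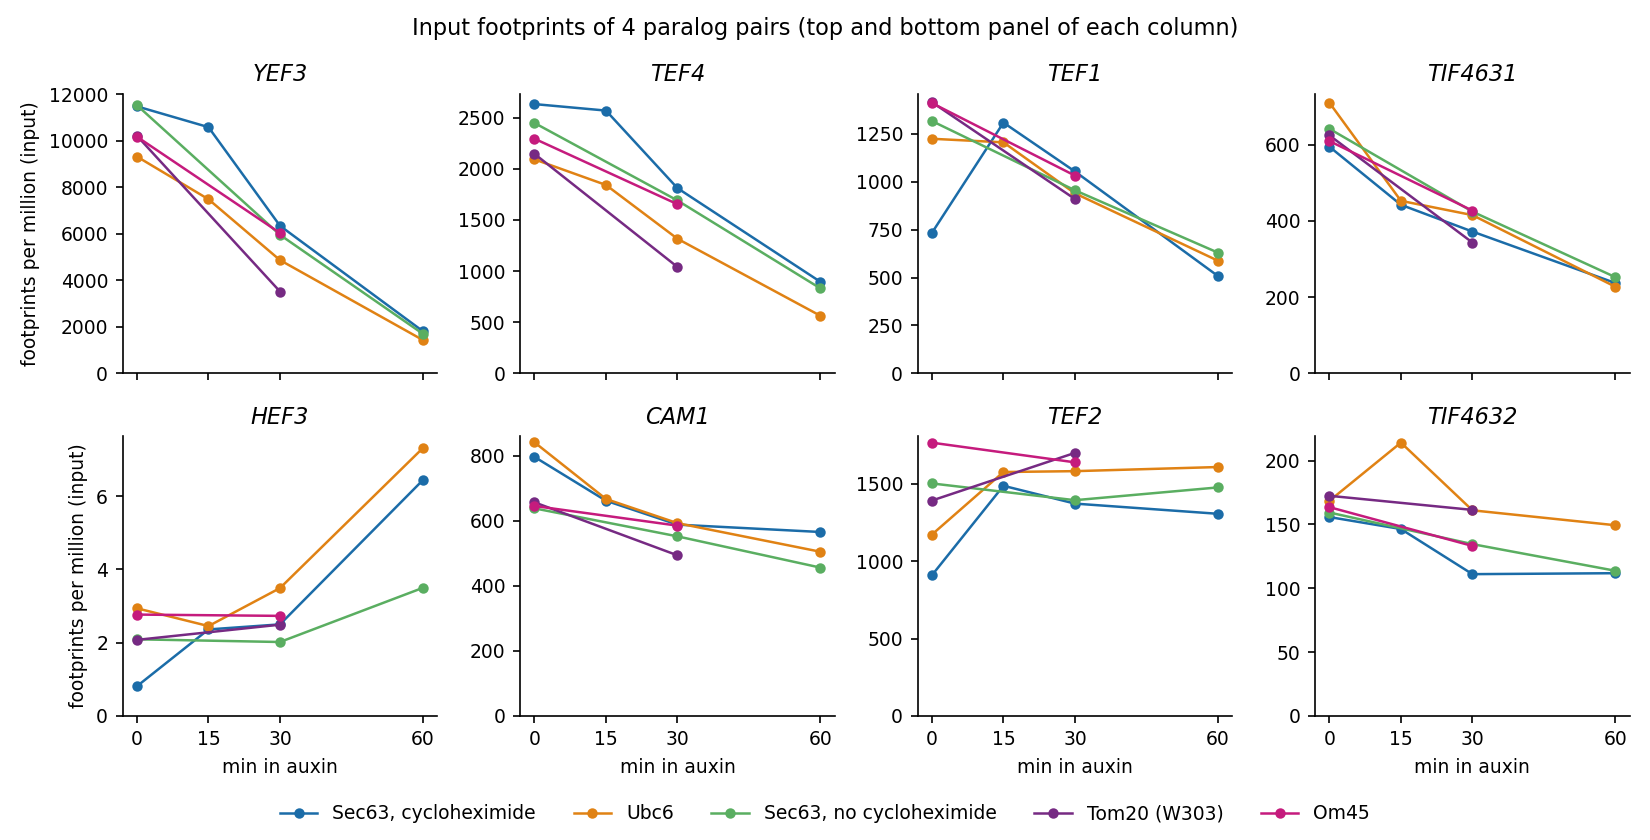
Input CPM against min in auxin, for 4 paralog pairs, each pair in one column, with 1 line per series. YEF3, TEF4, TEF1 and TIF4631 (top) end below their 0 min level in every series at 60 min, while HEF3 rises and CAM1 and TIF4632 fall less; each panel has its own axis from 0.

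Paralogs moved unequally. The change of TEF4 minus that of CAM1 was -1.0995 ± 0.052 on the log2 scale at 60 min (mean ± SD of 3 series), that of TIF4631 minus TIF4632 was -1.06 ± 0.36, that of TEF1 minus TEF2 was -1.20 ± 0.27 and that of YEF3 minus HEF3 was -4.38 ± 1.105. All 4 were below 0 in 3 of 3 series at 60 min and in 5 of 5 series at 30 min. EFT1 and EFT2 differed by 0.13 ± 0.22 and TIF1 and TIF2 by 0.02 ± 0.33 at 60 min. With 5 series, an exact 2-sided sign permutation test at 30 min cannot go below p = 0.0625, and these 4 pairs reached it, as did TIF1 minus TIF2 at 0.25 ± 0.11 (adjusted over 6 pairs, p = 0.075). TIF4632 (eIF4G2) had 112, 149 and 114 CPM at 60 min, against 156, 168 and 159 CPM at 0 min, and fell by 0.46 ± 0.10 (adjusted p = 0.0022). In these pairs the copy with more footprints per length at 0 min fell more in the case of YEF3, TEF4 and TIF4631, which stood 3168 to 14162, 2.51 to 3.86 and 3.47 to 4.04 times above their partners. TEF2 and TEF1 were level (0.96 to 1.25 times). The other 2 pairs did not show this order: EFT2 stood 1.56 to 1.75 times above EFT1, but EFT1 minus EFT2 ran from -0.11 to 0.30 at 60 min. TIF1 stood at 0.98 to 1.49 times TIF2, and its change lay above that of TIF2 in 5 of 5 series at 30 min.

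Other genes of the pathway fell as well. Of 20 cytosolic aminoacyl-tRNA synthetases, which load tRNAs, all 20 fell at 60 min (median -1.20), led by the prolyl enzyme YHR020W (-1.98) and THS1 (-1.64). Of 137 ribosomal protein genes, 131 fell and 1 rose (median -1.39). Of 15 enzymes that modify translation factors, 9 fell and 1 rose at 60 min. They include LIA1 (-2.53 ± 0.15), which completes the hypusine of eIF5A, DPH5 and DPH2 (-1.29 and -1.18), which make diphthamide on eEF2, and the methyltransferase genes EFM4 and EFM1 (-1.69 and -1.21), which act on elongation factors. LIA1 had already fallen by 1.42 ± 0.11 at 30 min. This group's median was -0.72 at 15 min, when 7 of 15 had fallen. Of 22 other translation genes, 14 fell at 60 min, among them RLI1 (-1.49), which recycles ribosomes, and NEW1 (-1.59), an ATPase related to eEF3. DBP1, the paralog of DED1, rose by 1.97 ± 0.23.

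Cycloheximide was compared in 3 matched times of the Sec63 strain. No factor passed, where 0.341% of all genes were called (edgeR), and 12 of 38 had an unadjusted p below 0.05 (31.6%, against 26.3% of all genes). DESeq2 called 4, and 7.93% of all genes. The smallest p-values were those of TIF11 (-0.69 ± 0.15, adjusted p = 0.067), HCR1 (-0.61 ± 0.14) and TIF1 (0.69 ± 0.16, both adjusted p = 0.070), GCD11 (-0.40 ± 0.12, adjusted p = 0.099) and SUP45 (-0.41 ± 0.13, adjusted p = 0.12). TIF11 had 139, 190 and 99.9 CPM with the drug at 0, 30 and 60 min, against 306, 228 and 167 CPM without it. HCR1 had 116, 148 and 130 CPM with the drug, against 241, 179 and 194 CPM without. TIF1 had 434, 262 and 166 CPM with the drug, against 223, 188 and 113 CPM without. The order was the same at each time in these 3 genes, and also in GCD11 and SUP45. GCD11 had 396, 354 and 229 CPM with the drug, against 652, 410.5 and 287.8 CPM without, and SUP45 had 251, 258 and 152 CPM, against 467, 281 and 186 CPM. The biotin pulse differed with the drug (2 and 1 min), so drug and pulse cannot be told apart. Each arm was 1 series, so its 3 times are not independent repeats.

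The W303 Tom20 series differed from the 4 S288C series in 2 factors, both lower, where 6.55% of all genes were lower. ANB1 had 0.51 CPM in W303 at 30 min and 1.37 CPM at 0 min. In the S288C inputs it had 2.13, 4.19, 6.44 and 6.54 CPM at 30 min and 2.94, 3.05, 7.83 and 8.38 CPM at 0 min. Both W303 values lay below all 8 of S288C, and the log2 difference was -2.68 ± 0.59 (adjusted p = 0.0082). TIF1 had 139 and 161 CPM in W303 at 30 and 0 min, against 188 to 434 CPM in the 8 S288C inputs (-1.001 ± 0.262, adjusted p = 0.022), with no overlap. It was not called without the Om45 series (adjusted p = 0.059). TIF2 missed the threshold (-0.62 ± 0.19, adjusted p = 0.051), and its 118.9 and 164 CPM in W303 overlapped the 145 to 292 CPM in S288C. GCD2 (-0.32 ± 0.12, adjusted p = 0.088) and TEF4 (-0.47 ± 0.22, adjusted p = 0.20) followed. TIF1 and TIF2 are counted over 130 bases each, and what a sequence difference between the strains does to those counts was not tested. Strain and ligase changed together and cannot be told apart.

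**Figure D4:**
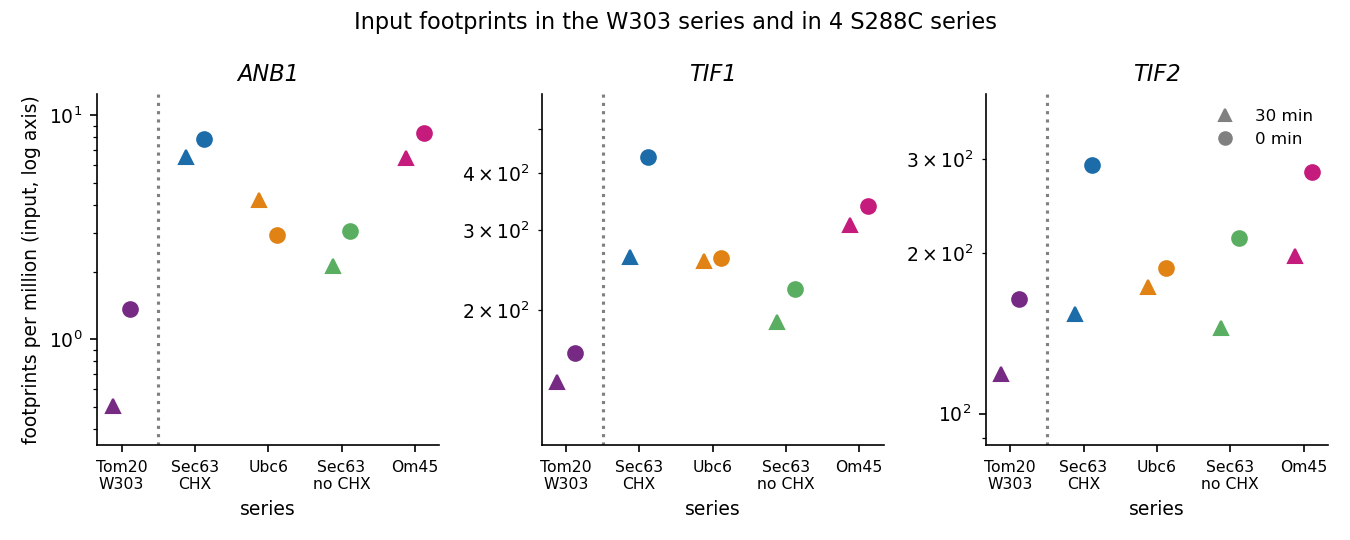
Input CPM of ANB1, TIF1 and TIF2 on log axes in the W303 Tom20 series (left of the dotted line) and in the 4 S288C series, with triangles for 30 min and circles for 0 min in auxin. The W303 values of ANB1 and TIF1 lie below all S288C values, and those of TIF2 overlap them.

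In the pulldowns, the factors stood below the bulk of genes. Enrichment here means pulldown over input on the log2 scale, within one culture and TMM scaled. At 0 min its median over the 38 factors was -0.86 at Sec63 with cycloheximide, -0.74 at Ubc6, -0.31 at Sec63 without cycloheximide, -0.44 at Tom20 and -0.59 at Om45. The medians over all genes in the same pairs were -0.45, -0.28, -0.11, -0.25 and -0.20. The factors' median was below that of all genes in each of the 15 pairs. By share, the 39 genes made up 0.64% of footprints in the Sec63 pulldown with cycloheximide at 0 min, against 3.02% in its input. Without the drug they made up 2.13% of the pulldown, against 3.33% of the input.

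FUN12 (eIF5B, the GTPase that joins the subunits) stood lowest. It was the lowest of the 38 factors in 11 of 15 pairs and below 0 in all 15, with a median enrichment of -1.42. At 0 min it had 57.1 CPM in the Sec63 pulldown with cycloheximide, against 614 CPM in the input, and 297 CPM in the Om45 pulldown, against 706 CPM in the input. With FUN12, 12 factors were below 0 in 15 of 15 pairs. Their medians ran from -1.42 for FUN12, -1.03 for TIF4631 and -0.91 for TIF4632 to -0.37 for TEF2. The median of all genes was itself below 0 in most pairs, down to -0.45 at Sec63 with cycloheximide at 0 min. The share of all genes below 0 in every pair was not determined, and the factors' values were not tested.

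CAM1 stood apart from the other factors at Tom20, and less so at Om45. At 0 min it had 1073 CPM in the Tom20 pulldown, against 657 CPM in its input, and 689 CPM in the Om45 pulldown, against 646 CPM in its input. At 30 min it had 775 CPM in the Tom20 pulldown, against 494 CPM in the input, and 622 CPM in the Om45 pulldown, against 585 CPM. Its enrichment was 1.101 and 1.12 at Tom20 and 0.26 and 0.34 at Om45 at 0 and 30 min. It was the highest of 38 factors in both Tom20 pairs and ranked 3 and 2 in the Om45 pairs, above 75.5 to 88.2% of all genes. At Om45, HEF3 stood above it at both times (0.59 each), and ANB1 at 0 min (0.36). SUP45 was also above 0 at Tom20 (0.06 and 0.24 at 0 and 30 min). At ER ligases the enrichment of CAM1 was -1.11, -0.95 and -0.32 at 0 min. Its paralog TEF4 had -0.46 and -0.54 at Tom20 and Om45 and -0.93, -0.71 and -0.30 at the ER.

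The difference between ER and mitochondrial enrichment at 0 min passed the test for none of the 38 factors, where 20.3% of all genes were called (edgeR). CAM1 came nearest, at -1.40 ± 0.38 (adjusted p = 0.052). It was the only factor with an unadjusted p below 0.05, where 29.3% of all genes had one. DESeq2 called CAM1 alone (-1.42, adjusted p = 0.0028) and 27.7% of all genes, and so did edgeR with library totals (-1.94, adjusted p = 0.035) or without the cycloheximide-free Sec63 series (adjusted p = 0.039). Without Tom20 its difference was -0.92 (adjusted p = 0.49). The next were DED1 (-0.51 ± 0.29), GCD2 (-0.36 ± 0.26), GCN3 (0.29 ± 0.24) and SUP45 (-0.28 ± 0.28), with adjusted p of 0.35 or more. DED1 had enrichments of -1.23, -0.92 and -0.96 at the ER ligases and of -0.44 and -0.47 at Tom20 and Om45. Its ER values all lay below its mitochondrial ones, an order that CAM1, EFT1, GCD2 and SUP45 shared. How many of all genes share it was not determined.

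**Figure D5:**
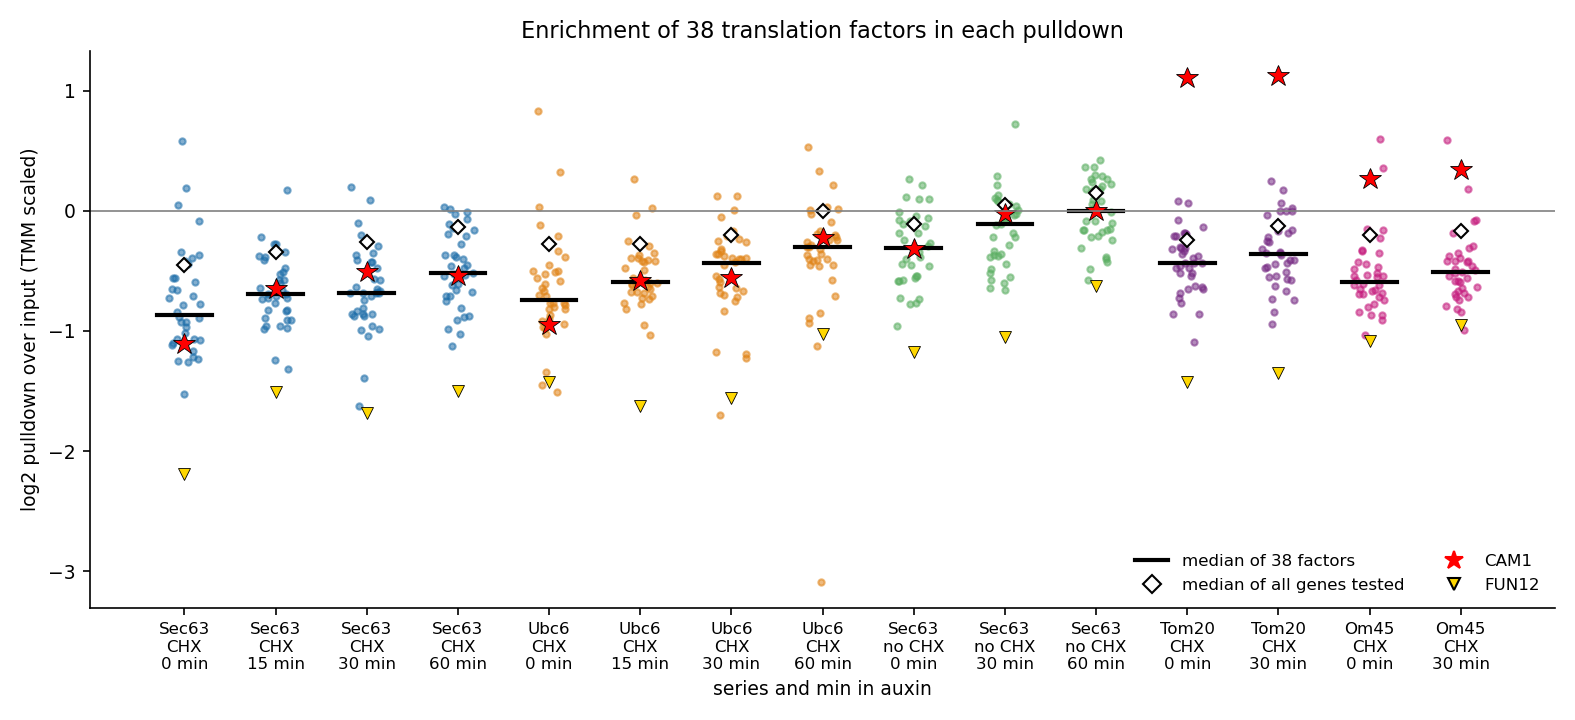
Log2 pulldown over input (TMM scaled) of 38 factors in each of 15 pairs, by ligase, cycloheximide (CHX) and min in auxin. Dots are single factors, black lines their median, white diamonds the median of all genes tested. The factors' median lies below that of all genes in every pair, CAM1 (stars) lies above 0 in the 4 mitochondrial pairs, and FUN12 (triangles) lies at or near the bottom.

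After auxin, the factors moved in the ER pulldowns together with the bulk of genes. At 60 min, 20 of 38 rose in ER enrichment and none fell, where 23.1% of all genes rose. The factors' median change was 0.31 and that of all genes 0.29, a shift that depends on scaling. With each library centred on its median gene, 2 factors rose (median 0.10, all genes 0.08), where 19.1% of all genes changed in either direction. With DESeq2 also 2 rose, where 20.9% changed in either direction. Both were YEF3 (0.56 ± 0.10 with TMM, adjusted p = 0.0011) and DED1 (0.56 ± 0.11, adjusted p = 0.0026). Less the median of all genes, YEF3 rose by 0.29, 0.30 and 0.31 in the Sec63, Ubc6 and cycloheximide-free Sec63 series, and DED1 by 0.27, 0.44 and 0.21. The count of 20 fell to 0 without the Sec63 series with cycloheximide, 1 without Ubc6, 10 without the cycloheximide-free Sec63 series, and 2 without Tom20 or Om45. YEF3 and DED1 were not called without the Sec63 series with cycloheximide (adjusted p = 0.51 each), nor DED1 without Ubc6 (adjusted p = 0.079).

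At 30 min, CAM1 (0.43 ± 0.11, adjusted p = 0.021), DED1 (0.40 ± 0.11, adjusted p = 0.024) and SUI3 (0.50 ± 0.16, adjusted p = 0.044) rose in ER enrichment, where 8.85% of all genes rose. After median centring none of them rose, where 16.7% of all genes changed in either direction. None was called without any one of the Sec63 series with cycloheximide, Ubc6, Tom20 or Om45, and 4 factors were without the cycloheximide-free Sec63 series. At 15 min no gene was called by edgeR (0% of all genes), and 3 factors had an unadjusted p below 0.05 (7.89%, against 16.7% of all genes). At mitochondrial ligases no factor changed at 30 min, where 1.04% of all genes were called by edgeR, and none had an unadjusted p below 0.05, against 6.53% of all genes. The ER change minus the mitochondrial change at 30 min passed for no factor, where 13.2% of all genes were called, and 1 factor had an unadjusted p below 0.05, against 20.1% of all genes. DESeq2 also called none of the factors in these 3 comparisons, where it called 2.76%, 2.57% and 14.4% of all genes. The share of the 39 genes in the Sec63 pulldown with cycloheximide stood at 0.39 times that in the input at 60 min, against 0.21 times at 0 min. At Ubc6 the values were 0.51 times at 60 min, against 0.34 times at 0 min. At Om45 they were 0.55 times at 30 min, against 0.57 times at 0 min.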

How the data were processed

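Ribosome footprints were measured in 30 libraries, 15 pairs of pulldown and input. Per the file headers, each deposited table holds a footprint count and an RPKM value per gene. Counts were tested as the authors deposited them. RPKM values, scaled by the authors by counted length and library total per the file headers, served only for levels per length. Per the submitters' processing notes, the tools were TopHat2 2.1.1, Bowtie 1.1.2 and CASAVA, whose version is not stated, and the build sacCer3. The handling of reads with several matches, of strand and of molecular identifiers is not given in the sources used here, so values of near-identical paralogs are uncertain. Per the labels, 22 libraries had linkers with a 5 nt identifier and 8 carried no barcode label.

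The 5286 genes whose inputs averaged 20 or more counts went into the quasi-likelihood test of edgeR 4.0.16 (R 4.3.3) (TMM scaling, 2-sided, Benjamini-Hochberg over all genes tested, threshold 0.05). Input changes were fitted on 15 inputs with the series as a block (7 residual degrees of freedom), cycloheximide on 6 inputs (2) and strain on 10 (7), both with time as a block. The cycloheximide and strain fits had no series term, so inputs of one series counted as independent. Enrichment was the interaction of fraction with condition, with the pair as a block, on 10 libraries at 0 min (3) or on all 30 (6). SE is the absolute log2 change over the root of F, and a prior count of 1 was used for values per library. In simulated counts for the input change at 30 min over 5286 genes, the fit recovered 98% of 2-fold and 100% of 4-fold changes. For ER minus mitochondria at 0 min it recovered 3% and 61%. The simulated counts had one dispersion for all genes and no differences between series. These rates thus do not give the sensitivity of the real fits. Alternatives were DESeq2 1.42.0, library totals, median centring, no filter, a mean count of 100, summed paralogs, no series block and leaving out each series or time. The 95% Wilson interval of the factors' share of a library was at most 0.0461 percentage points wide, which covers counting error only.

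All 39 genes are accounted for. Values in every sample are given for at most the 12 factors with the largest absolute change past the threshold in a comparison, for paralog pairs, and for the 5 smallest p-values where fewer than 5 passed; values of the ER changes are given only for the factors named. Other lists are given as counts and medians with up to 5 named genes. The members and lists were chosen with earlier results of these data known. No sequences were used.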

Additional observations from a re-analysis of the deposited data

Results flagged for a closer look

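The change of each of the 38 factors in the inputs at 30 min was compared over the 5 series by Dixon's ratio, with a critical value of 0.71, and 7 had 1 series far from the others. For independent genes, chance gives about 1 in 20, but the factors share the same cultures and 0 min inputs. The share over all genes was not determined, so the count says nothing particular to the factors. In 4 of these the W303 Tom20 series fell furthest. YEF3 changed by -1.42 there, against -0.79 to -0.58 in the other series, TIF3 by -1.01, against -0.64 to -0.50, RPG1 by -0.95, against -0.22 to -0.08, and CDC33 by -0.42, against -0.18 to -0.14. In the Sec63 series with cycloheximide, TEF1 changed by 0.64, against -0.52 to -0.23 in the other series, and HEF3 by 1.71, against 0.15 to 0.40. HEF3 had 9 footprints in that 0 min input. EFB1 changed by 0.22 in the Ubc6 series, against 0.42 to 0.48 in the others.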

How the results depend on the processing

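At 15 min, 1 factor was called in the inputs, 4 with DESeq2, 0 with no series block, and 0 to 1 when each series was left out. At 30 min, 23 were called, 8 with no series block and 12 to 17 with a series left out. For cycloheximide, 0 were called, 4 with DESeq2, 1 with library totals and 0 to 3 with a time left out. For W303, 2 were called, 4 with DESeq2 and 1 to 3 with a series left out. For ER minus mitochondria at 0 min, 0 were called, 1 each with DESeq2 and library totals and 0 to 1 with a series left out. For the ER change at 30 min, 3 were called, 15 with library totals, 0 when median centred and 0 to 4 with a series left out. At 60 min, 20 were called, 2 each with DESeq2 and median centring, 4 each with no filter and summed paralogs, and 0 to 10 with a series left out. Beyond the shares of all genes given above, the share called under these other settings was not determined. Counts under them, here and above, thus show how the calls depend on the setting and nothing particular to the factors. The sign of elongation minus initiation turned at 30 min with summed paralogs (-0.087) and ran from -0.055 to 0.15 with a series left out; at 60 min it ran from -0.18 to 0.0024. Per kilobase of the whole gene, most of which was not counted, TEF1 had 956.5 and TEF2 1011 CPM. GCN3 turned to -0.24 for ER minus mitochondria with library totals. The mitochondrial change at 30 min ran from -0.0399 to 0.18 for TEF1 and from -0.036 to 0.18 for TIF11 with a series left out. The causes were not tested. Series or culture served as blocks, as above, except in the cycloheximide and strain fits. The labels give no replicate numbers to pair on beyond these. With 1 library per condition, differences between cultures of one strain could not be measured, and low counts limit ANB1 and HEF3.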
